A study of Mus musculus with 16 samples.

Results

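The mitochondrial respiratory chain was followed across 4 populations of mouse colon cells, sorted as fibroblasts by surface markers, through 61 nuclear genes. They are the genes whose symbols begin with Ndufa, Ndufb, Ndufc, Ndufs or Ndufv followed by a digit (subunits of complex I, with Ndufa4 now placed in complex IV), are Sdha to Sdhd (complex II), begin with Uqcr (complex III) or begin with Cox4 to Cox8 (complex IV), with Ndufa4l2 left out, and they were measured by 110 of the array's 45141 probe sets. They make up 61 of the 17097 genes that a probe set names alone: 32 of complex I, 4 of complex II, 7 of complex III and 18 of complex IV. Of these, 60 are protein coding and Ndufs5-ps is a transcribed pseudogene.

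The chain passes electrons from NADH, at complex I, or from succinate, at complex II, through ubiquinone to complex III, and then through cytochrome c to complex IV, which reduces oxygen. Complexes I, III and IV pump protons across the inner mitochondrial membrane, and ATP synthase uses that gradient to make ATP. Several subunits of complex IV come in isoforms from separate genes, one made in most tissues and another found mainly in heart, muscle, lung or testis.

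The cells came from the colons of 4 C57BL/6 mice carrying Gli1CreERT2-ZsGreen, in which Cre activated by tamoxifen marks cells that express Gli1, a transcription factor of the Hedgehog pathway, with the reporter ZsGreen. All mice, and so all populations, had the same genotype and received 1 mg tamoxifen into the peritoneum on each of 5 days in a row, with colons taken on day 6 (a further label puts the time at 5 days after tamoxifen). Cells without Epcam, CD45 and CD31 and with gp38 were sorted by Sca1 and the reporter: Sca1+ cells into reporter-high, reporter-dim and reporter-negative, and Sca1- cells that were reporter-negative. Each population of each mouse was 1 Affymetrix array made from 2 ng of amplified RNA, 16 arrays in all, and the number of arrays limits the precision. Reporter-dim and reporter-high cells were marked by past Cre activity, so the mark need not follow Gli1 at the time of the sort. Values below are signals recovered from the deposited scores, or log2 differences between means of 4 arrays with their standard errors (SE), and adjusted p values come from limma over 17097 genes, with a threshold of 0.05. The 6 comparisons share arrays, and so their results do not stand apart from one another.

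The labels were checked on other genes. Gli1 averaged 2611 ± 321 (SD, n = 4) in reporter-high cells, 2323 ± 322 in reporter-dim cells, and 1104 ± 299 and 921 ± 318 in the Sca1+ and Sca1- reporter-negative cells. The arrays labelled mouse 2 did not match one another in a check for mixed-up samples, so any count of mice, and any fit that pairs arrays by mouse, takes the labels as given, and results are also given without that mouse where they move. The gate excluded Epcam+ cells, yet Epcam read 1698 to 6869 in reporter-high and 12855 to 20560 in Sca1+ reporter-negative cells, against a highest nonspecific control of 234 to 488 per array. Averaged over 20 genes of colon epithelium, reporter-high cells had a log2 signal of 11.66 ± 0.84 (SD, n = 4), reporter-dim cells 13.22 ± 0.51, and the Sca1+ and Sca1- reporter-negative cells 13.93 ± 0.30 and 13.90 ± 0.46. Col1a1 read between 29910 and 65743 on every array, but the mean log2 signal of 11 fibroblast genes was 14.31 ± 0.07 (SD, n = 4) in reporter-high cells, 14.21 ± 0.12 in reporter-dim cells, and 13.82 ± 0.19 and 13.39 ± 0.37 in the Sca1+ and Sca1- reporter-negative cells. With epithelial genes this high in every population, and markers of interstitial cells of Cajal high in Sca1- cells, the populations are called here by their sort and not as pure fibroblasts. Ndufa4l2, the paralogue left out of the chain here, averaged 678, 777, 709 and 740 in the same order of populations.

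Respiratory chain transcripts were lower in reporter-high cells than in Sca1+ reporter-negative cells in every complex. In limma, 51 of the 61 genes fell and 1, Cox6b2, rose, where 13.9% of all 17097 genes fell and 17% rose. The median difference of the 61 genes was -0.58, a signal of 67.1% of that in Sca1+ reporter-negative cells, beside a median of 0.00 over all genes, and 59 of the 61 differences were below 0. For 50 genes every reporter-high array lay below every Sca1+ reporter-negative array, which held for 14.9% of all genes. These directions are relative to the other genes on the array. When the arrays were scaled to their hybridization controls instead, the median of all genes moved to 0.38 and 60% of all genes rose while 5.18% fell, and among the 61 genes 5 rose and 12 fell. The median of the 61 genes lay 0.57 log2 units under that of all genes by either scaling. That gap could not change, because the scaling moves all genes of an array by the same amount. Without mouse 2, 34 of the 61 genes fell and 0 rose, where 7.89% of all genes fell. In bulk samples such as these, fewer cells of a type and less RNA per cell cannot be told apart.

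**Figure D1:**
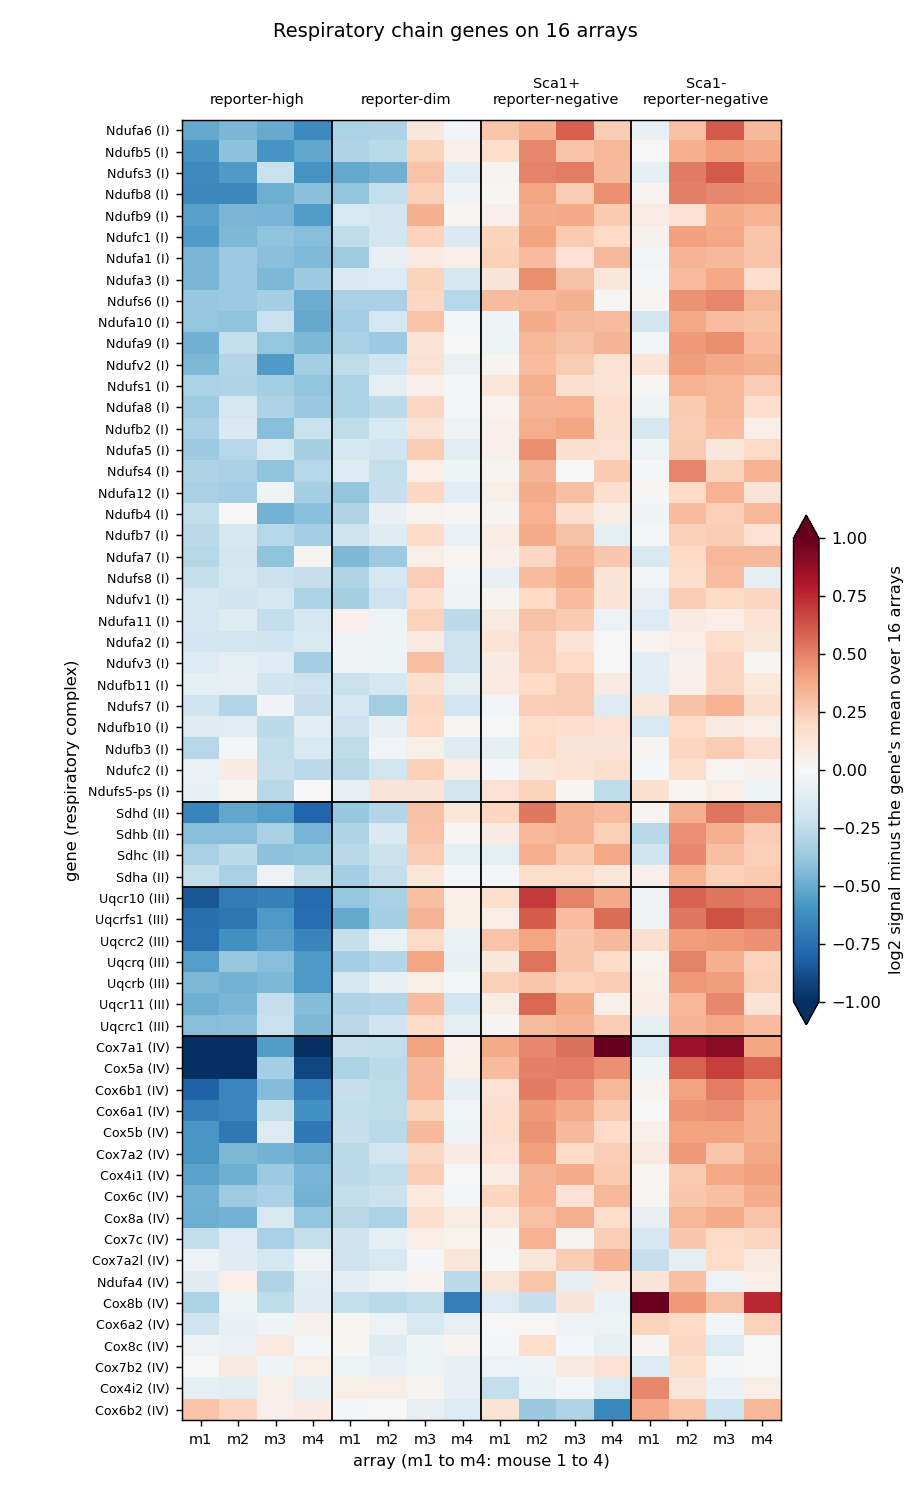
Each row is 1 of the 61 respiratory chain genes and each column 1 of the 16 arrays, in blocks of 4 mice per population; colour is the log2 signal minus the gene's mean over the 16 arrays, with values past 1 or -1 shown at the end of the scale. Reporter-high arrays are blue for nearly all rows, and 50 genes are lower there on every array than on any Sca1+ reporter-negative array; scaled to hybridization controls, 43 of the 61 differences stay below 0.

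The 48 members of the RefSeq promoter table (GRCm38.p6) were searched for letters that mark known regulators of mitochondrial genes, in the window from 250 bases before to 50 bases after the start of the gene, on both strands. The palindromic core of the NRF1 site was in 10 of the 48 windows (20.8%) and in 8.39% of 13514 windows of all genes. The short NRF1 site TGCGCA, which can overlap the core, was in 13 (27.1%, against 12.6%), and YY1 letters GCCATNTT were in 12 (25.0%, against 8.14%). ETS letters CCGGAAG were in 9 (18.8%, against 15.1%), the E-box CACGTG in 2 (4.17%, against 10.2%) and the ERR letters TCAAGGTCA in 1 (2.08%, against 0.385%). At least 1 of the 6 motifs was in 29 of the 48 genes, and the same share over all genes was not counted. Shown are the genes with the largest fall in reporter-high cells and with the only rise, Cox7a1 and Cox6b2, whose windows hold none of the 6 motifs, and 3 genes that fell and hold an NRF1 core. These are Sdhd (which also holds the ETS and ERR letters), Cox6a1 (with 2 NRF1 cores and the ETS letters) and Ndufs6 (with the YY1 letters). Capitals mark the matches, and a match says only that the letters are there.
Cox7a1, chr7:30183921-30184220, plus strand: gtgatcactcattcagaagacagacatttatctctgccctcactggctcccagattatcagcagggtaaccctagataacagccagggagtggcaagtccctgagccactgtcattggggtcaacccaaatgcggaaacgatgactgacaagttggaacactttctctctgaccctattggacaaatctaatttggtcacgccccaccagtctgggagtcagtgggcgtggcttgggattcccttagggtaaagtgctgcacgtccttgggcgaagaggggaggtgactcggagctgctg
Cox6b2, chr7:4753045-4753344, minus strand: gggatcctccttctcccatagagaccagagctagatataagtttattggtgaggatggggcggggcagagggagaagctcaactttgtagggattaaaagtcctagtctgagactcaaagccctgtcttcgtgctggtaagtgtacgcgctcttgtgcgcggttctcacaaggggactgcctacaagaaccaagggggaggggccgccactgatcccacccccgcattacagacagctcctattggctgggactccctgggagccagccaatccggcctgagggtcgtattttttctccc
Sdhd, chr9:50603800-50604099, minus strand: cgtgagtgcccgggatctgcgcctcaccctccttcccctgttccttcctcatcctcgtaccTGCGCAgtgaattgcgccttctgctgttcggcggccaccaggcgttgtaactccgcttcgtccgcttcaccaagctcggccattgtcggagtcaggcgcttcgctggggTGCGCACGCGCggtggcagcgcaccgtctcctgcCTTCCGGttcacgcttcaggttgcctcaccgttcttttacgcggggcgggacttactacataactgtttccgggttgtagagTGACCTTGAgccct
Cox6a1, chr5:115348909-115349208, minus strand: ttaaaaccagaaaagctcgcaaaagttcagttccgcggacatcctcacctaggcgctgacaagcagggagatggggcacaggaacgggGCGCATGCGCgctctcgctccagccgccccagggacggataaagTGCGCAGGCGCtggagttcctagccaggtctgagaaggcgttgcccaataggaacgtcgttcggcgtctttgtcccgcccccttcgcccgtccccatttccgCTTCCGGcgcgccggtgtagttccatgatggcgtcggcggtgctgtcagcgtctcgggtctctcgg
Ndufs6, chr13:73328433-73328732, minus strand: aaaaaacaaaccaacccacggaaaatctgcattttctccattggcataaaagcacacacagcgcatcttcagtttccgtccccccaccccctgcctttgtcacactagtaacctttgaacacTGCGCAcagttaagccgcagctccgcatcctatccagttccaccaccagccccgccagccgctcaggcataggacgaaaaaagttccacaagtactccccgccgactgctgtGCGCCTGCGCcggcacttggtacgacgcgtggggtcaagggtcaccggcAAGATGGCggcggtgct
The median difference of the 10 genes with an NRF1 core in reporter-high cells, set against Sca1+ reporter-negative cells, was -0.57, and that of the others was -0.56. With and without the other motifs the medians were -0.62 and -0.48 for the short NRF1 site, -0.67 and -0.49 for ETS, -0.55 and -0.56 for YY1 and -0.41 and -0.61 for the E-box, the last over 2 genes; Sdhd, the 1 gene with the ERR letters, was at -0.98. These are descriptions with no test.

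Complex I, the entry point for NADH, fell in 29 of its 32 genes in reporter-high against Sca1+ reporter-negative cells, with a median of -0.49 and a range of -0.90 to -0.11. Among the core subunits, which make up the conserved electron path, Ndufs3 fell by 0.84, Ndufv2 by 0.60, Ndufs1 by 0.53, Ndufs8 by 0.40 and Ndufv1 by 0.39 on the log2 scale, and Ndufs7 was at -0.27 ± 0.12 with an adjusted p of 0.0892, which became 0.0296 with mouse as a block. The accessory subunits, which surround that core, ran from Ndufa6 at -0.90 ± 0.13 and Ndufb5 at -0.85 ± 0.12 to Ndufb3 at -0.27 ± 0.09 and Ndufb10 at -0.27 ± 0.09 among those that fell. Between them lay Ndufb9, Ndufb8, Ndufc1, Ndufa1, Ndufa3, Ndufs6, Ndufa10, Ndufa9, Ndufa8, Ndufb2, Ndufa5, Ndufa12, Ndufs4, Ndufb4, Ndufa7, Ndufb7, Ndufa11, Ndufa2, Ndufb11 and Ndufv3. The accessory subunit Ndufc2 at -0.22 ± 0.11 and the pseudogene Ndufs5-ps at -0.11 ± 0.11 did not pass the threshold.

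In the values that follow, the 4 signals of a population are those of mice 1 to 4 in order, and the order of mice has no meaning beyond the label. Ndufa6, an accessory subunit of the matrix arm, read 1906, 1985, 1919 and 1748 in reporter-high cells, 2184, 2192, 2945 and 2665 in reporter-dim cells, 3301, 3481, 4124 and 3248 in Sca1+ and 2586, 3333, 4150 and 3400 in Sca1- reporter-negative cells. Its 4 reporter-high arrays lay below every other array, and the difference from Sca1+ reporter-negative cells was -0.90 ± 0.13, adjusted p = 0.000328. Ndufb9, an accessory subunit of the membrane arm, read 5869, 6210, 6170 and 5794 in reporter-high cells, 7639, 7475, 10937 and 8667 in reporter-dim cells, 8844, 11039, 11070 and 10208 in Sca1+ and 8970, 9470, 11069 and 10850 in Sca1- reporter-negative cells. Reporter-high signals stayed within 5794 to 6210 and below all others, and the gene fell against Sca1+ reporter-negative (-0.77 ± 0.11, adjusted p = 0.000345) and reporter-dim cells (-0.51 ± 0.11, adjusted p = 0.0388). Ndufb8, another membrane arm subunit, read 8627, 8598, 9603 and 10087 in reporter-high cells, 10239, 11414, 15904 and 13154 in reporter-dim cells, 13668, 17678, 16031 and 18508 in Sca1+ and 13824, 19141, 18759 and 18700 in Sca1- reporter-negative cells. Only the reporter-dim array of mouse 1, at 10239, came near the reporter-high range, and reporter-high cells lay lower than Sca1- cells by 0.92 on the log2 scale.

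Ndufs6, which is needed for the last steps of complex I assembly, read 2550, 2566, 2626 and 2344 in reporter-high cells, 2642, 2643, 3809 and 2711 in reporter-dim cells, 4114, 4174, 4234 and 3342 in Sca1+ and 3353, 4512, 4614 and 4161 in Sca1- reporter-negative cells. In reporter-dim cells 3 arrays lay between 2642 and 2711 and that of mouse 3 at 3809, so that their range met the Sca1+ reporter-negative range. It fell in reporter-high against Sca1+ reporter-negative cells (-0.65 ± 0.13, adjusted p = 0.00157) and in reporter-dim against Sca1- cells (-0.50 ± 0.13, adjusted p = 0.0166). Ndufa12, a late-joining subunit of the matrix arm, read 11154, 11037, 13612 and 11067 in reporter-high cells, 10614, 11863, 16082 and 12865 in reporter-dim cells, 14531, 18063, 17203 and 15646 in Sca1+ and 14032, 15901, 17709 and 15235 in Sca1- reporter-negative cells by its brightest probe set. That probe set fell in reporter-high cells against Sca1- cells (-0.42 ± 0.12, adjusted p = 0.0119), and a further one fell by 0.48 (adjusted p = 0.00351), whereas another probe set, with mean signals of 1450 and 1080, rose by 0.41 ± 0.12 (adjusted p = 0.0152). No other gene of the 61 had probe sets called both higher and lower within a comparison.

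Complex II, which also works as an enzyme of the tricarboxylic acid cycle, fell in all 4 of its genes in reporter-high against Sca1+ reporter-negative cells, with a median of -0.62. Sdhd, a membrane anchor subunit, read 2544, 2800, 2738 and 2318 in reporter-high cells, 3093, 3282, 4926 and 4353 in reporter-dim cells, 4665, 5792, 5091 and 5019 in Sca1+ and 4097, 5151, 5833 and 5586 in Sca1- reporter-negative cells. Reporter-high arrays were lower than all others, at 50.6% of the Sca1+ reporter-negative signal (-0.98 ± 0.14, adjusted p = 0.000322). Sdhc, the other anchor, read 2794, 2927, 2642 and 2660 in reporter-high cells, 2891, 3020, 4190 and 3296 in reporter-dim cells, 3275, 4506, 4197 and 4592 in Sca1+ and 3048, 4880, 4318 and 4139 in Sca1- reporter-negative cells. Its reporter-high arrays lay below both reporter-negative populations, and that of mouse 2, at 2927, was just above the reporter-dim array of mouse 1, at 2891; the difference from Sca1+ reporter-negative cells was -0.58 ± 0.15, adjusted p = 0.00783.

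Sdhb, the iron-sulfur subunit, read 5249, 5240, 5648 and 5108 in reporter-high cells, 5729, 6380, 8613 and 7118 in reporter-dim cells, 7481, 8884, 8998 and 8304 in Sca1+ and 5817, 9670, 9024 and 8391 in Sca1- reporter-negative cells. Every reporter-high array was below every other array, and the difference was -0.66 ± 0.14, adjusted p = 0.00304. Sdha, the flavoprotein that oxidises succinate, read 11452, 10813, 12968 and 11338 in reporter-high cells, 10670, 11463, 14689 and 13344 in reporter-dim cells, 13430, 15381, 15334 and 14650 in Sca1+ and 14001, 17188, 15970 and 16219 in Sca1- reporter-negative cells. It had the smallest difference of the 4 (-0.34 ± 0.10, adjusted p = 0.0179), and the reporter-high and reporter-dim ranges overlapped. In reporter-dim cells Sdha was lower than in Sca1- cells (-0.34 ± 0.10, adjusted p = 0.0324), the only gene of the complex past the threshold there.

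Complex III, which hands electrons from ubiquinol to cytochrome c, fell in all 7 genes in reporter-high against Sca1+ reporter-negative cells, with a median of -0.76 and a range of -1.19 to -0.62. Uqcr10, a small subunit, read 4157, 4643, 4700 and 4400 in reporter-high cells, 5746, 6021, 9261 and 7873 in reporter-dim cells, 8509, 12233, 10617 and 9758 in Sca1+ and 7357, 11316, 10898 and 10712 in Sca1- reporter-negative cells. The 4 reporter-high arrays lay within 4157 to 4700, below the lowest reporter-dim array, and averaged 43.9% of the Sca1+ reporter-negative signal (-1.19 ± 0.16, adjusted p = 0.000238). Uqcrc2, a core protein, read 8493, 9378, 9787 and 9033 in reporter-high cells, 12132, 13594, 16266 and 13604 in reporter-dim cells, 17402, 18772, 17233 and 17829 in Sca1+ and 15968, 19058, 19159 and 19544 in Sca1- reporter-negative cells. Reporter-high, reporter-dim and Sca1+ reporter-negative arrays formed 3 ranges that did not overlap. Uqcrc2 fell in reporter-high against Sca1+ reporter-negative cells (-0.96 ± 0.09, adjusted p = 7.97e-05), against reporter-dim cells (-0.59 ± 0.09, adjusted p = 0.014) and in reporter-dim against Sca1- cells (-0.41 ± 0.09, adjusted p = 0.00682). The Rieske iron-sulfur protein Uqcrfs1 fell by 1.09, the small subunits Uqcrq, Uqcrb and Uqcr11 by 0.76, 0.74 and 0.67, and the core protein Uqcrc1 by 0.62 in reporter-high against Sca1+ reporter-negative cells on the log2 scale.

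**Figure D2:**
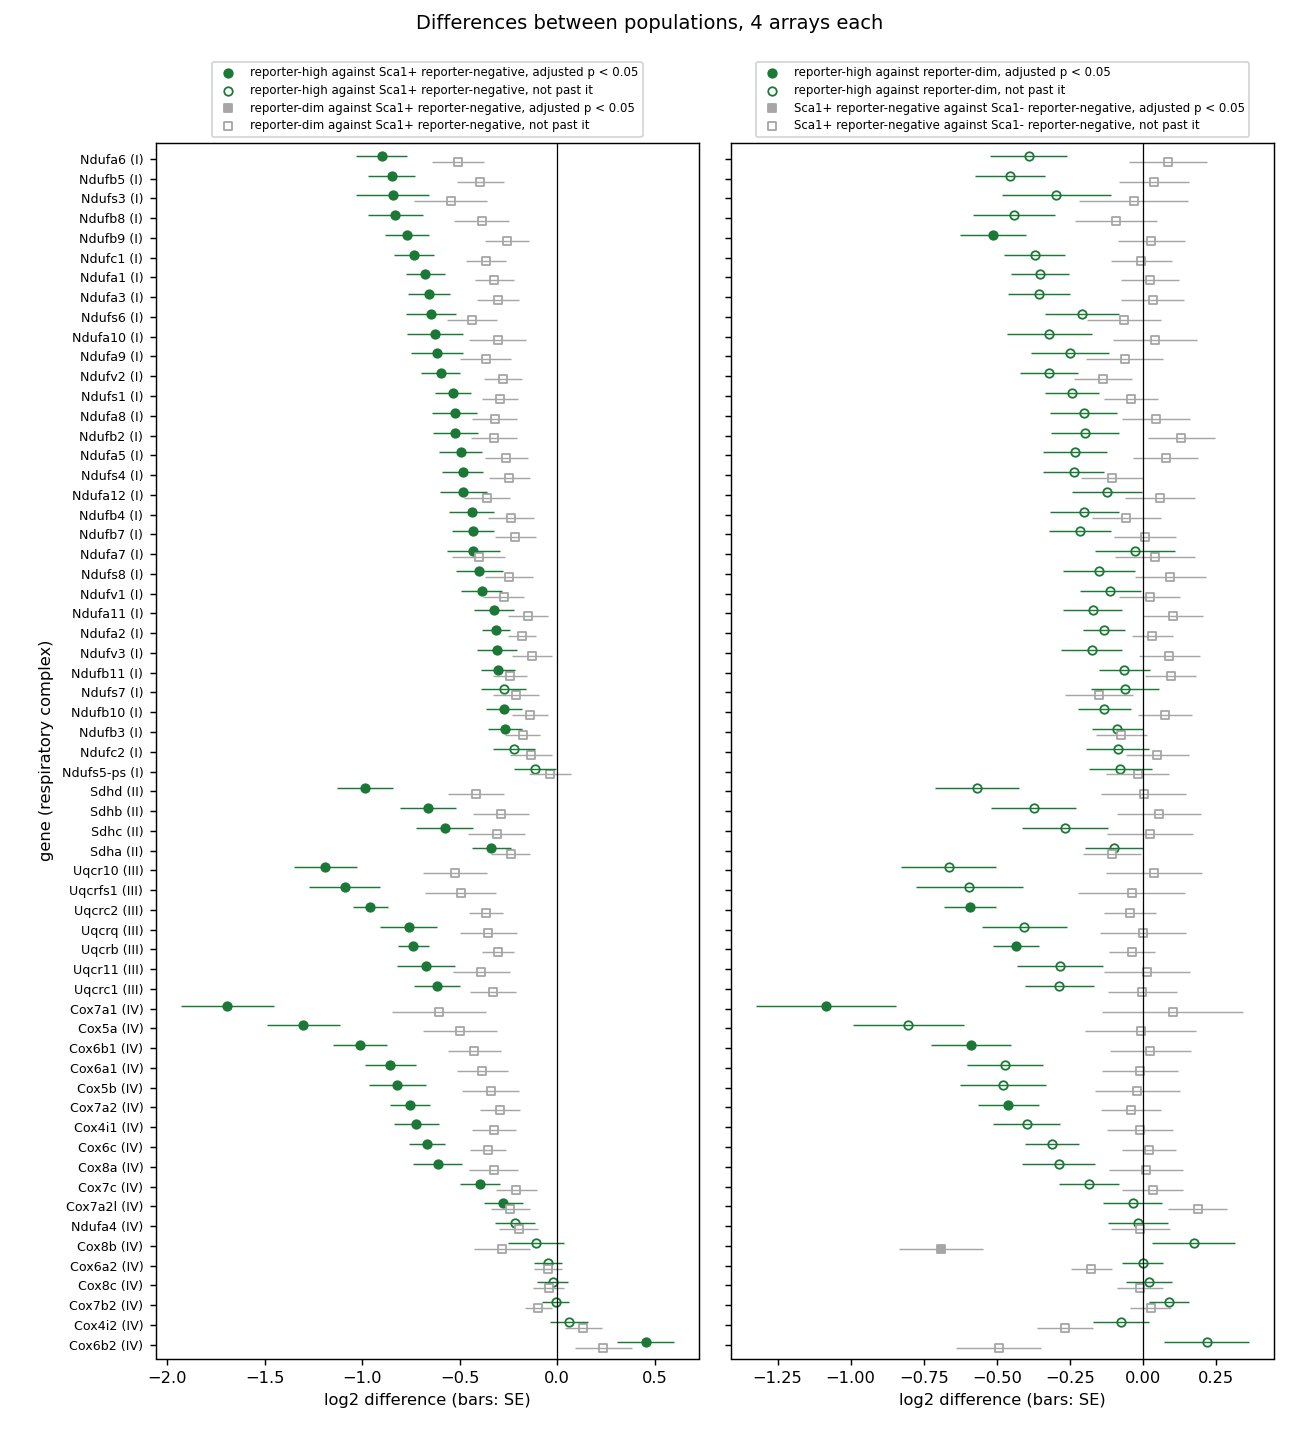
Log2 differences with SE for the 61 genes, ordered by complex, from means of 4 arrays per population; filled markers passed an adjusted p of 0.05. The left panel holds reporter-high (circles) and reporter-dim (squares) against Sca1+ reporter-negative cells, where 52 and 0 genes passed; the right panel holds reporter-high against reporter-dim cells (6 genes) and Sca1+ against Sca1- reporter-negative cells (1 gene). Scaled to hybridization controls, 17, 0, 5 and 1 genes passed.

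Complex IV, cytochrome c oxidase, spanned the widest range of the 4 complexes in reporter-high against Sca1+ reporter-negative cells, -1.69 to 0.45. There 11 of its 18 genes fell, 1 rose and 6 did not pass the threshold. The genes that fell were the subunits made in most tissues together with Cox7a1 and Cox7a2l, and those that did not were Ndufa4 and the isoforms Cox4i2, Cox6a2, Cox7b2, Cox8b and Cox8c. Cox7a1, the heart and muscle isoform of subunit 7a, had the largest difference of the 61 genes in the 3 comparisons of reporter-high cells. It read 1208, 1029, 1883 and 1225 in reporter-high cells, 2359, 2331, 3659 and 2877 in reporter-dim cells, 3576, 3865, 4054 and 5552 in Sca1+ and 2480, 5020, 5179 and 3651 in Sca1- reporter-negative cells. No reporter-high array reached the lowest reporter-dim array, and reporter-high cells averaged 31% of the Sca1+ reporter-negative signal (-1.69 ± 0.24, adjusted p = 0.00028) and 47.2% of the reporter-dim signal (-1.08 ± 0.24, adjusted p = 0.0387). Cox7a2, the isoform of the same subunit found in most tissues, read 27329, 29975, 29348 and 28642 in reporter-high cells, 33831, 36010, 47132 and 43111 in reporter-dim cells, 45182, 54313, 46902 and 48430 in Sca1+ and 43347, 54859, 49367 and 53236 in Sca1- reporter-negative cells. Its reporter-high arrays lay below all others, and it fell against Sca1+ reporter-negative (-0.75 ± 0.10, adjusted p = 0.00024) and reporter-dim cells (-0.46 ± 0.10, adjusted p = 0.0403). Cox7a2l read 8468, 8114, 7820 and 8516 in reporter-high cells, 7653, 7876, 8722 and 9594 in reporter-dim cells, 8825, 9527, 10515 and 11128 in Sca1+ and 7512, 8300, 10000 and 9400 in Sca1- reporter-negative cells. Its reporter-high arrays lay just below the Sca1+ reporter-negative arrays (-0.28 ± 0.10, adjusted p = 0.0487) and overlapped those of Sca1- cells, and the sign of the first difference turned to 0.11 when arrays were scaled to hybridization controls.

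Cox5a, a subunit on the matrix side, read 6264, 6655, 10812 and 7290 in reporter-high cells, 10969, 11397, 17113 and 14239 in reporter-dim cells, 16999, 19422, 19501 and 18815 in Sca1+ and 13244, 20534, 22076 and 20633 in Sca1- reporter-negative cells. The reporter-high array of mouse 3, at 10812, came close to the reporter-dim array of mouse 1, at 10969, and the difference from Sca1+ reporter-negative cells was -1.30 ± 0.19, adjusted p = 0.000314. Cox5b, its neighbour, which binds zinc, read 13735, 12518, 18711 and 12516 in reporter-high cells, 17524, 16975, 25735 and 19821 in reporter-dim cells, 23169, 28061, 25704 and 23390 in Sca1+ and 21306, 27149, 27122 and 26289 in Sca1- reporter-negative cells. Mouse 3 was again the highest of the reporter-high arrays, here above the reporter-dim arrays of mice 1 and 2, and the difference was -0.82 ± 0.15, adjusted p = 0.000909. Cox6c, a membrane subunit, read 16957, 18521, 18842 and 17083 in reporter-high cells, 19927, 20376, 25305 and 23377 in reporter-dim cells, 27460, 30150, 26157 and 29845 in Sca1+ and 23937, 28500, 29168 and 30595 in Sca1- reporter-negative cells. Its reporter-high arrays lay below all others (-0.67 ± 0.09, adjusted p = 0.000246), and it also fell in reporter-dim against Sca1- cells (-0.34 ± 0.09, adjusted p = 0.0259). Cox7c, another small membrane subunit, fell by 0.39 in reporter-high against Sca1+ reporter-negative cells on the log2 scale.

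Subunits 4, 6a, 6b and 8 each have a common form and tissue-restricted forms. In reporter-high against Sca1+ reporter-negative cells the common forms of these subunits fell and their tissue-restricted forms did not. Outside these subunits, the heart and muscle form Cox7a1 did fall (-1.69). Against Sca1- cells, Cox6a2 and Cox8b of the restricted forms fell too. In Sca1+ reporter-negative cells the restricted forms averaged 729 (Cox6a2) to 1712 (Cox8c), and the common forms 5890 (Cox8a) to 38963 (Cox6a1). The median signal per array was 661 to 686. The difference between forms, and the part of the lower signals in it, was not tested. Cox4i1, the common form of subunit 4, read 16823, 17370, 18901 and 17689 in reporter-high cells, 20374, 20561, 28828 and 24421 in reporter-dim cells, 25600, 30782, 31464 and 29152 in Sca1+ and 24663, 29245, 31917 and 32334 in Sca1- reporter-negative cells. Its 4 reporter-high arrays lay below all others, and it fell against Sca1+ reporter-negative cells (-0.72 ± 0.11, adjusted p = 0.000467). Cox4i2, the lung form, which low oxygen induces, read 847, 835, 939 and 856 in reporter-high cells, 940, 947, 922 and 852 in reporter-dim cells, 766, 860, 891 and 821 in Sca1+ and 1260, 982, 864 and 947 in Sca1- reporter-negative cells. Its ranges overlapped in every comparison with Sca1+ reporter-negative cells, and the difference was 0.06 ± 0.10, adjusted p = 0.699. Cox6a1, the common form of subunit 6a, read 19414, 20006, 26563 and 20649 in reporter-high cells, 26458, 26381, 36578 and 30880 in reporter-dim cells, 35398, 42203, 40612 and 37639 in Sca1+ and 31485, 42785, 43229 and 40455 in Sca1- reporter-negative cells. It fell (-0.86 ± 0.13, adjusted p = 0.000386), with the mouse 3 array highest among reporter-high arrays and just above 2 reporter-dim arrays. Cox6a2, the heart and muscle form, read 644, 703, 716 and 762 in reporter-high cells, 749, 709, 667 and 699 in reporter-dim cells, 742, 739, 721 and 714 in Sca1+ and 864, 847, 726 and 868 in Sca1- reporter-negative cells. It did not pass the threshold in reporter-high against Sca1+ reporter-negative cells (-0.05 ± 0.07, adjusted p = 0.667), and 3 of the 4 Sca1- arrays exceeded every array of the other populations; it was lower in reporter-high than in Sca1- cells (-0.23 ± 0.07, adjusted p = 0.0207).

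Cox6b1, the common form of subunit 6b, read 4557, 5074, 5908 and 4946 in reporter-high cells, 6815, 6691, 10054 and 7518 in reporter-dim cells, 8872, 11459, 10940 and 10043 in Sca1+ and 8191, 10531, 11403 and 10588 in Sca1- reporter-negative cells. Reporter-high arrays lay below all others, against Sca1+ reporter-negative (-1.01 ± 0.14, adjusted p = 0.000231) and reporter-dim cells (-0.59 ± 0.14, adjusted p = 0.0474). Cox6b2, the testis form, read 1398, 1335, 1187 and 1213 in reporter-high cells, 1133, 1146, 1086 and 1042 in reporter-dim cells, 1260, 886, 930 and 736 in Sca1+ and 1496, 1391, 999 and 1443 in Sca1- reporter-negative cells. It was the only gene of the 61 that rose in reporter-high against Sca1+ reporter-negative cells (0.45 ± 0.15, adjusted p = 0.0273), being higher in all 4 mice, although the Sca1+ reporter-negative array of mouse 1, at 1260, kept the ranges from separating. The call rested on several arrays: the adjusted p was above 0.05, between 0.0574 and 0.0955, on leaving out mouse 1 or 2 from the reporter-high arrays, or mouse 2, 3 or 4 from the Sca1+ reporter-negative ones. It was 0.182 without mouse 2, 0.149 without mouse 4 and 0.0828 with a block on mice 1, 3 and 4. The difference became -0.01 when the epithelial signal was a covariate, a fit in which 1 of all 17097 genes passed. The epithelium means of the reporter-high and Sca1+ reporter-negative arrays did not overlap (10.88 to 12.77 and 13.51 to 14.22). That fit can therefore hardly separate population from epithelium. Cox8a, the common form of subunit 8, read 3563, 3596, 4466 and 3803 in reporter-high cells, 4122, 4013, 5575 and 5254 in reporter-dim cells, 5371, 6108, 6428 and 5653 in Sca1+ and 4712, 6273, 6455 and 6081 in Sca1- reporter-negative cells. It fell in reporter-high against Sca1+ reporter-negative cells (-0.61 ± 0.13, adjusted p = 0.00206), and its reporter-high range overlapped the reporter-dim range.

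**Figure D3:**
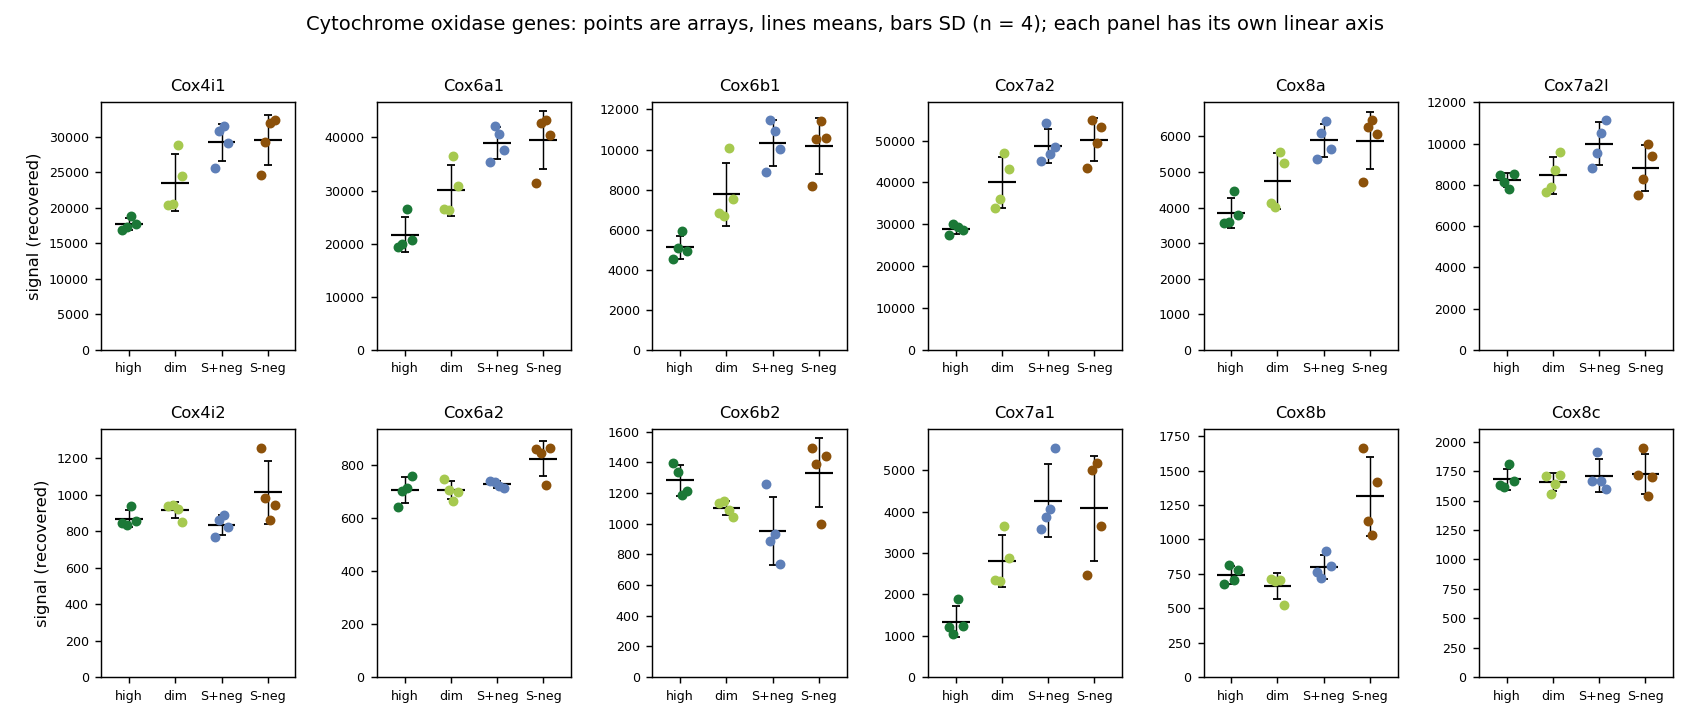
Signals of 12 cytochrome oxidase genes on the 16 arrays, on linear axes from 0 that differ between panels; points are arrays, lines means and bars SD (n = 4) for reporter-high (high), reporter-dim (dim), Sca1+ reporter-negative (S+neg) and Sca1- reporter-negative cells (S-neg). The order of populations differs between isoforms: Cox7a1 follows Cox7a2 downward in reporter-high cells, Cox6b2 is highest in Sca1- and reporter-high cells, and Cox8b in Sca1- cells.

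Cox8b, the form of subunit 8 found in heart, muscle and brown fat, read 674, 813, 703 and 774 in reporter-high cells, 714, 698, 708 and 524 in reporter-dim cells, 765, 717, 919 and 803 in Sca1+ and 1667, 1131, 1031 and 1416 in Sca1- reporter-negative cells. All 4 Sca1- arrays, from 1031 to 1667, lay above the other 12 arrays, none of which exceeded 919. It was the 1 gene of the 61 that differed between Sca1+ and Sca1- reporter-negative cells (-0.69 ± 0.14, adjusted p = 0.0155), and it was lower than in Sca1- cells in reporter-high (-0.80 ± 0.14, adjusted p = 0.000499) and reporter-dim cells too (-0.97 ± 0.14, adjusted p = 0.000518). Cox8c, the testis form, read 1635, 1617, 1813 and 1666 in reporter-high cells, 1706, 1559, 1645 and 1722 in reporter-dim cells, 1668, 1913, 1671 and 1596 in Sca1+ and 1721, 1952, 1541 and 1697 in Sca1- reporter-negative cells. Its ranges overlapped between all populations. Cox7b2, the testis form of subunit 7b, read 161 to 199 over the 16 arrays, not above the highest nonspecific control on any of them, and the other 60 genes were above it on all. Ndufa4, named for complex I but now counted with complex IV, read 3544, 4019, 3130 and 3575 in reporter-high cells, 3581, 3713, 3950 and 3186 in reporter-dim cells, 4193, 4668, 3614 and 4092 in Sca1+ and 4202, 4750, 3703 and 4023 in Sca1- reporter-negative cells. Its reporter-high and Sca1+ reporter-negative ranges overlapped (-0.22 ± 0.10, adjusted p = 0.128), and against Sca1- cells its adjusted p was 0.0995, or 0.0466 with mouse as a block.

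In the median of the chain, reporter-dim cells lay lower than Sca1+ reporter-negative cells and higher than reporter-high cells, but no gene passed the threshold against Sca1+ reporter-negative cells with mouse left out of the fit. The count was 0 of 61, where 0.608% of all genes fell. At an unadjusted p under 0.05 there were 40 of the 61, beside 3696 of all 17097 genes. The median difference was -0.30, a signal of 81.0% of that in Sca1+ reporter-negative cells, and 59 of 61 differences were below 0. Every reporter-dim array was below every Sca1+ reporter-negative array for 7 genes, where this held for 5.12% of all genes. Blocked by mouse, 29 of the 61 fell and 0 rose, where 7.78% of all genes fell. The 29 comprised 14 genes of complex I, Sdhd, 6 of complex III and 8 of complex IV, with adjusted p of 0.00751 for Uqcrc2 and 0.00701 for Ndufa6 in that fit. The same fit without mouse 2 gave 0 genes, where 2.68% of all genes fell. At an unadjusted p under 0.05 it gave 27 of the 61, with no such count over all genes.

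Reporter-dim arrays differed among themselves: the mean log2 signal of the 61 genes was 12.31, 12.36, 12.72 and 12.49 in mice 1 to 4. In reporter-high cells it was 12.16, 12.22, 12.24 and 12.17, in Sca1+ reporter-negative cells 12.63, 12.86, 12.80 and 12.73, and in Sca1- cells 12.56, 12.87, 12.86 and 12.81. The reporter-dim array of mouse 3 thus lay among the reporter-negative arrays, and the other 3 lay between those and the reporter-high arrays. The reporter-high arrays spanned the narrowest range of the 4 populations. Leaving out the reporter-dim array of mouse 3, 9 genes fell against Sca1+ reporter-negative cells; leaving out the Sca1+ reporter-negative array of mouse 1, 4 did. The Sca1- arrays share the estimate of spread, and 10 genes fell when that of mouse 1 was left out and 1 when that of mouse 3 was. Without mouse 1 altogether, 3 genes fell. These counts on leaving out an array or a mouse are given without a share of all genes. They show only how the count moved and are not read as a result about the 61 genes.

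Reporter-high against reporter-dim cells gave 6 falls and 0 rises among the 61 genes, where 0.93% of all genes fell. They were Cox7a1, Uqcrc2, Cox6b1, Ndufb9, Cox7a2 and Uqcrb, the last at -0.43 ± 0.08, adjusted p = 0.0228. The median difference was -0.24, and for 23 genes every reporter-high array was below every reporter-dim array, which held for 4.46% of all genes. With mouse as a block 22 genes fell, where 4.67% of all genes fell, and without mouse 2 the block gave 22, where 4.14% did. Without mouse 1 the count was 14, without mouse 3 it was 3, and without mouse 2 or mouse 4 it was 0, with 28 and 21 at an unadjusted p under 0.05. Without mouse 2 or mouse 4, 0 of all 17097 genes passed in either direction, and without mouse 1 and mouse 3, 2.24% and 1.13% of all genes fell. The count depended on single arrays as well: among reporter-high arrays, leaving out that of mouse 1 gave 0 and that of mouse 2 or 4 gave 1. Among reporter-dim arrays, leaving out that of mouse 3 or 4 gave 0 and that of mouse 1 gave 11; with these counts of 0, 21 to 26 of the 61 had an unadjusted p under 0.05, and at most 9 of all genes passed. Leaving out the Sca1+ reporter-negative array gave 2 for mouse 2, 2 for mouse 3 and 3 for mouse 4, and leaving out the Sca1- array gave 16 for mouse 1 and 2 for mouse 4. The counts above 0 on leaving out a single array are given without a share of all genes. Scaled to hybridization controls, 4 of the 61 genes rose and 1 fell, where 40.4% of all genes rose and 1.46% fell, and the median of the 61 genes turned to 0.07 while that of all genes moved to 0.33.

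Between Sca1+ and Sca1- reporter-negative cells, only Cox8b passed the threshold, being lower in Sca1+ cells, where 1.23% of all genes were lower, and the median of the 61 genes was 0.01. With mouse as a block Cox6b2 was also lower (adjusted p = 0.0422), where 1.65% of all genes were. Cox8b was the only member whose arrays did not overlap, which held in this direction for 2.76% of all genes. Without mouse 2, without mouse 4, or without the Sca1+ array of mouse 2 or the Sca1- array of mouse 4, 0 genes passed, with 2 to 4 at an unadjusted p under 0.05. Without the Sca1+ array of mouse 1 or the Sca1- array of mouse 3, 2 passed. Of all genes, 0.562% were lower and 0.345% higher without mouse 2, and the other settings are given without such a share. A fit on these 8 arrays alone gave 0, with 2 at an unadjusted p under 0.05. The Sca1- cells also held more signal of other cell types: of 5 markers of interstitial cells of Cajal 4 were lower in Sca1+ cells, with mean log2 signals of 10.69 ± 0.21 and 12.23 ± 0.24 (SD, n = 4), as were 3 of 7 markers of enteric glia and neurons and 2 of 10 of smooth muscle. Their part in the Cox8b difference was not tested.

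Against Sca1- cells, 48 of the 61 genes fell in reporter-high cells, where 16.7% of all genes fell, with a median of -0.59, and 0 rose. For 44 genes no reporter-high array reached any Sca1- array, which held for 15% of all genes. Scaled to hybridization controls, 3 of the 61 rose and 11 fell, where 66.2% of all genes rose and 5.57% fell. With mouse as a block 51 fell, where 18.2% of all genes did, Ndufa4, Ndufs8 and Ndufv3 being added. In the same comparison all 20 colon epithelium genes fell with a median of -2.31, as did 5 of 5 markers of interstitial cells of Cajal, 12 of 15 endothelium and 8 of 11 proliferation genes, while 10 of 11 fibroblast genes rose. With the epithelium mean as a covariate, 2 of the 61 genes fell, where 0.918% of all genes fell. At an unadjusted p under 0.05 there were then 10 of the 61, with no such count over all genes. The part of these markers in the difference was not tested further. In reporter-dim cells 15 fell and 0 rose against Sca1- cells, where 5.89% of all genes fell, with a median of -0.32, and 35 fell with mouse as a block, where 11.3% of all genes did. Besides those named above the 15 held Ndufv2 at -0.42 ± 0.10, adjusted p = 0.0119, Ndufa9, Ndufc1, Ndufs4, Ndufs1, Ndufb8, Ndufa6, Uqcrb, Cox7a2 and Cox6a2, and Cox8b was the only member whose 2 groups did not overlap, as 5.86% of all genes did in this direction.

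This last count rested on a few arrays. Without mouse 2 it was 1, where 1.56% of all genes fell, and with mouse as a block but without mouse 2 it was 8, where 6.7% did. Without mouse 1 it was 24 and without mouse 4 it was 1. Among Sca1- arrays, leaving out that of mouse 1 gave 39, that of mouse 2 gave 4 and that of mouse 3 or 4 gave 5. Among reporter-dim arrays, leaving out that of mouse 3 gave 35 and that of mouse 1 or 2 gave 4. The counts without a single array, without mouse 1 and without mouse 4 are given with no share of all genes beside them. Scaled to hybridization controls 1 gene fell, where 1.86% of all genes did. Over the 4 populations together, the F test passed 49 of the 61 genes, where 32.3% of all genes passed. It passed 52 with mouse as a block, where 36.4% of all genes passed. Without mouse 2 it passed 28, where 15.2% of all genes passed, and without mouse 4 it passed 30, where 17.9% did.

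Markers of epithelium moved with the respiratory chain. All 20 measured colon epithelium genes fell in reporter-high against Sca1+ reporter-negative cells, with a median of -2.27, and none was at array background in any population. Among the 4 reporter-high arrays their mean log2 signal ran from 10.88 in mouse 2 to 12.77 in mouse 3, while that of the 61 genes stayed within 12.16 to 12.24. In reporter-dim cells the 2 means ranked the arrays alike, from 12.69 and 12.31 in mouse 1 to 13.76 and 12.72 in mouse 3. In both reporter-negative populations the array of mouse 1 was lowest in both, at 13.51 and 12.63 in Sca1+ and 13.23 and 12.56 in Sca1- cells. The reporter-high array of mouse 3 and the reporter-dim arrays of mice 1 and 2 had epithelium means of 12.77, 12.69 and 12.88, and means of the 61 genes of 12.24, 12.31 and 12.36. With the epithelium mean as a covariate, 0 of the 61 genes and 1 of all 17097 genes passed in reporter-high against Sca1+ reporter-negative cells. At an unadjusted p under 0.05 there were then 9 of the 61, with no such count over all genes. The median difference of the 61 genes was then -0.21, with Cox8a, Ndufa12 and Sdha at 0.05, 0.09 and 0.14. The part of epithelial RNA in the respiratory chain differences was not tested beyond these values.

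**Figure D4:**
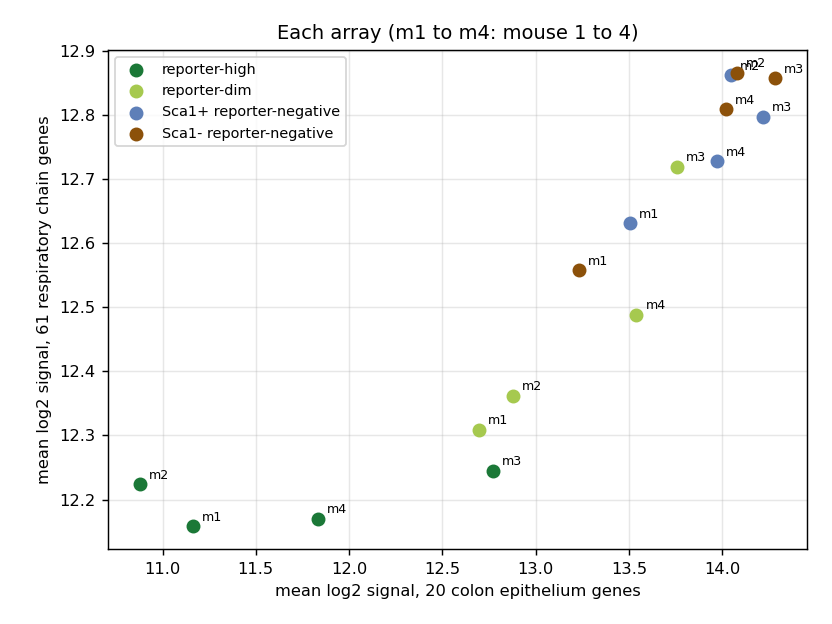
Each point is 1 array: the horizontal axis averages log2 signals over 20 genes of colon epithelium and the vertical axis over the 61 respiratory chain genes. The 4 reporter-high arrays spread from 10.88 to 12.77 in epithelium signal at 12.16 to 12.24 in respiratory chain signal, and the Sca1+ reporter-negative arrays lie at 13.51 to 14.22 and 12.63 to 12.86. The reporter-dim arrays, ranked alike on both axes, lie at 12.69 to 13.76 and 12.31 to 12.72, and the Sca1- arrays at 13.23 to 14.28 and 12.56 to 12.87.

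Other markers moved as well in that comparison. In reporter-high cells 9 of 11 proliferation, 11 of 15 endothelium and 4 of 16 leukocyte genes fell, where 13.9% of all genes did. Smooth muscle genes rose in 8 of 10 cases and fibroblast genes in 4 of 11, where 17% of all genes rose. Scaled to hybridization controls, 3 of the 16 leukocyte genes rose and 1 fell, where 60% of all genes rose and 5.18% fell. Mean log2 signals of the proliferation genes were 9.67 ± 0.25 (SD, n = 4) in reporter-high and 10.77 ± 0.42 in Sca1+ reporter-negative cells, and those of the smooth muscle genes 12.22 ± 0.24 and 10.91 ± 0.45. The ratio of 3' to 5' signals of the Actb control was 1.22 to 1.29 in reporter-high cells and no higher than 1.13 in Sca1+ reporter-negative cells. The part of these in the respiratory chain differences was not tested.

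The rest of oxidative metabolism was read from gene lists in reporter-high against Sca1+ reporter-negative cells. Subunits of ATP synthase, the enzyme that uses the proton gradient, fell in 17 of 18 cases with a median of -0.60, led by the inhibitor Atpif1 at -0.81 ± 0.11 and the subunit Atp5o at -0.79 ± 0.12. Of 8 further members of the chain that the symbols do not catch, 5 fell, among them the sulfide oxidoreductase Sqor at -1.02 ± 0.17, the acyl carrier Ndufab1 at -0.96 ± 0.12 and cytochrome c1, Cyc1, at -0.95 ± 0.18. Enzymes of the tricarboxylic acid cycle fell in 11 of 17 cases, with a median of -0.34, and those of mitochondrial fatty acid oxidation in 11 of 14, with a median of -0.52. Suclg2, a subunit of succinate-CoA ligase, was at -1.49 ± 0.22, and Hadh, a dehydrogenase of fatty acid oxidation, at -1.04 ± 0.13.

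The shares of all genes in this comparison, 13.9% lower and 17% higher, are the background for each list. Of the assembly factors, which build the complexes without staying in them, none of 13 complex I assembly factors passed the threshold in limma, and 0 had an unadjusted p under 0.05, with a median of 0.01 and a range of -0.26 to 0.09. For complexes II to IV, 6 of 24 assembly factors fell and 2 rose (25.0% and 8.33%), with a median of -0.05; their 8 calls are a share close to that of all genes, and the copper chaperone Cox17 had the largest fall, at -0.79 ± 0.11. Scaled to hybridization controls, 10 of these 24 rose and 1 fell, where 60% of all genes rose and 5.18% fell. Of 13 regulators of mitochondrial biogenesis 2 fell and 2 rose (15.4% each way), shares near those of all genes: the coactivator Ppargc1b at -1.74 ± 0.27 and the nuclear receptor Esrra at -0.47 ± 0.13 were lower, and the transcription factor Nrf1 at 0.29 ± 0.09 and the mitochondrial RNA polymerase Polrmt, which was at array background in Sca1+ reporter-negative cells, were higher. Glycolysis was mixed, with 8 of 18 genes lower and 2 higher, from the lactate carrier Slc16a1 at -2.24 ± 0.19 to the enolase Eno2 at 0.85 ± 0.19. Of 12 hypoxia response genes 8 fell, with Car9, a carbonic anhydrase, at -1.75 ± 0.31; this list and that of pericytes hold Cox4i2, which is also 1 of the 61 genes.

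**Figure D5:**
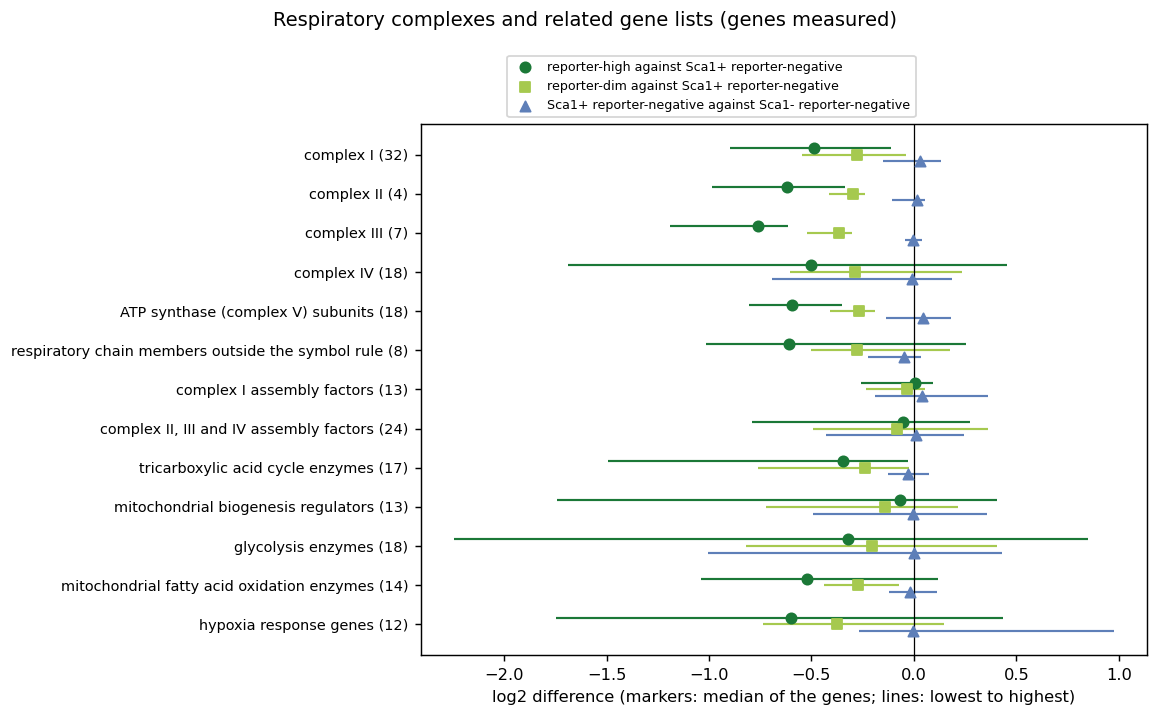
Median (marker) and lowest to highest (line) log2 difference of the genes in each complex and in each related list, with the number measured in brackets. In reporter-high against Sca1+ reporter-negative cells complex III lies lowest of the 4 complexes, with a median of -0.76, ATP synthase is at -0.60 and complex I assembly factors at 0.01; in Sca1+ against Sca1- reporter-negative cells the 4 complexes have medians from -0.01 to 0.03. Values are relative to a median of all genes near 0, which scaling to hybridization controls moves to 0.38, 0.06 and 0.05 in the 3 comparisons.

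The other probe sets of these genes were read as a check on the choice of the brightest. Of all 110, 82 fell and 1 rose in reporter-high against Sca1+ reporter-negative cells, where 12.4% of 28898 probe sets fell and 17.2% rose. With the mean over a gene's probe sets in place of the brightest, 49 of the 61 genes fell and 1 rose, and the median difference was -0.47. By single mice, the difference in the mean log2 signal of the 61 genes was -0.47, -0.64, -0.55 and -0.56 in mice 1 to 4, and that of complex III -0.75, -1.02, -0.77 and -0.89.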

How the data were processed

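Each of the 16 arrays was 1 mouse and 1 population. The deposited values were scores: the authors had standardized each probe set to mean 0 and SD 1 over the 16 arrays, as the values themselves show, and per the submitters' processing notes Affymetrix Expression Console 1.1 was used. How probes were summarised and how arrays were normalized was not given in the sources used here. Because signals were whole numbers before they were standardized on a log scale, the signals of all 45141 probe sets could be recovered, with a largest error of 1e-13 in the score, and 1000 of 1000 simulated probe sets were recovered. The log scale had been assumed at the outset for the deposited values; they turned out to be scores. Recovered signals had a median of 661 to 686 per array.

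A gene was read from the brightest of its probe sets that name it alone (28898 probe sets name 1 gene, 551 several and 15588 none, beside 104 controls), which gave 17097 genes. limma 3.58.1 in R 4.3.3 was fitted on log2 signals with 1 mean per population and Benjamini-Hochberg adjustment over all 17097 genes. Tested on simulated data built on the reporter-high and Sca1+ reporter-negative arrays, over the same genes, it recovered 88 of 100 genes changed by a log2 of 1 and 97 of 100 changed by a log2 of 2. Array background was the highest nonspecific control on each array.

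Mouse numbers come from the labels, so populations of 1 mouse are paired. Deviations of arrays of the same mouse from their population means correlated at 0.519, -0.0795, 0.508 and 0.112 in mice 1 to 4, against -0.0893 on average between different mice. The fit with mouse as a block is given beside a named gene whose call it changes in reporter-high against reporter-negative cells, and beside counts it moves by over 1.5 times.

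The members and the gene lists were chosen with earlier results of these data known. Genes named with values on every array were, for each comparison and complex, those with the largest rise and fall among genes called and moving the same way in all 4 mice; the isoform families of cytochrome oxidase, Cox5, Cox6c and Ndufa4; the 4 Sdh genes; genes at array background in a population; and genes whose probe sets were called in opposite directions. From each list up to 3 called genes with the largest differences could be named. Genes given by a difference alone were chosen after their values were seen. Alternatives were quantile normalization, scaling to hybridization controls, the mean over probe sets, a filter on dim probe sets, a fit on 2 populations, the scores themselves, the epithelium mean as a covariate, the mouse block and leaving out each mouse and each array. A block on mice 1, 3 and 4 was added after seeing the data.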

Additional observations from a re-analysis of the deposited data

Results flagged for a closer look

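Within the groups of 4 arrays, the highest or lowest array stood apart from the other 3 in 9 of 136 groups tested (28 named genes and 6 mean signals, of the 61 genes, each complex and the colon epithelium genes, in 4 populations), all 9 of them single genes, by Dixon's test at the 95% level; chance gives about 1 in 20. In Sca1- cells the array of mouse 1 was lowest for Cox5b, at 21306 against 26289 to 27149 on the others. The same array read 13824 for Ndufb8 (others 18700 to 19141), 7357 for Uqcr10 (others 10712 to 11316) and 15968 for Uqcrc2 (others 19058 to 19544). Cox6a2 read 726 on the Sca1- array of mouse 3, where the others read 847 to 868. In reporter-dim cells Cox8b was 524 in mouse 4 (others 698 to 714) and Ndufs6 was 3809 in mouse 3 (others 2642 to 2711). Ndufs6 was 3342 in Sca1+ reporter-negative cells of mouse 4 (others 4114 to 4234), and Ndufa12 was 13612 in reporter-high cells of mouse 3 (others 11037 to 11154).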

How the results depend on the processing

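Counts are of the 61 genes, and those with no share of all genes here or above have no background at that setting. With the epithelium mean as a covariate, 2.26% of all genes were higher and 1.7% lower in Sca1+ against Sca1- reporter-negative cells. In reporter-dim against Sca1- cells, 4.97% were then higher and 3.54% lower. In reporter-high against Sca1+ reporter-negative cells, 17 passed with scaling to hybridization controls and 0 with the epithelium mean as a covariate; leaving out a mouse gave 34 to 50 and a single array 43 to 52. In reporter-dim against Sca1+ reporter-negative cells, the mouse block gave 29, quantile normalization 1, leaving out a mouse 0 to 3 and an array 0 to 10. In reporter-high against reporter-dim cells, the mouse block gave 22 with all mice and 22 with mice 1, 3 and 4, hybridization scaling 5 (4 of them higher, median 0.074), the scores 0, the covariate 0, leaving out a mouse 0 to 14 and an array 0 to 16. In Sca1+ against Sca1- reporter-negative cells, the mouse block and the covariate each gave 2, and the block on mice 1, 3 and 4, the fit on 2 populations and the scores each gave 0; leaving out a mouse gave 0 to 1 and an array 0 to 2. In reporter-high against Sca1- cells, hybridization scaling gave 14 and the covariate 2; leaving out a mouse gave 36 to 49 and an array 45 to 51. In reporter-dim against Sca1- cells, the mouse block gave 35, the block on mice 1, 3 and 4 gave 8, quantile normalization 25, hybridization scaling 1, the fit on 2 populations 1, the scores 1 and the covariate 2; leaving out a mouse gave 1 to 24 and an array 4 to 39. The F test passed 10 with hybridization scaling and 2 with the covariate, 28 to 48 without a mouse and 43 to 50 without an array. The mouse block changed no other count by over 1.5 times.

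With hybridization scaling, signs turned for Cox7a2l (0.11) and Sdha (0.044) when reporter-high cells were set against Sca1+ reporter-negative ones, and for Cox6a2 (0.21) and Ndufa12 (0.01) against Sca1- cells. With the covariate they turned for Cox6b2 (-0.0081), Cox8a (0.049), Ndufa12 (0.094) and Sdha (0.14) in the former, and for Cox8a (0.049), Ndufa12 (0.14) and Sdha (0.030) in the latter. The balance of related lists also turned with hybridization scaling: assembly factors of complexes II to IV (11 called in reporter-high cells against either reporter-negative population), leukocytes (4 and 6), mesothelium (3, against Sca1- cells), glycolysis (4 in reporter-high against reporter-dim, 3 in reporter-dim against Sca1- cells), and glia (3) and fatty acid oxidation (1) in reporter-high against reporter-dim cells. In that last comparison 1 biogenesis regulator was lower without mouse 1 or mouse 3, and 1 glia gene was higher without the reporter-high array of mouse 4. The cause was not tested. No reversal was seen among the named genes' called differences with quantile normalization, the mean over probe sets, the filter, the scores or the mouse block. The number of arrays, and signals near the highest nonspecific control for Cox7b2, limit the precision.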
